A study of Mus musculus with 20 samples.

Results

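Cd83 and Cd24a are a pair of genes for surface proteins of immune cells, measured here in CD8+ T cells sorted from tumours under 4 treatments. They were chosen by their measured values: both stood lower in the Combination group than in the ABL503 group, and both were to be set beside markers of other cell types over the 20 libraries. Both were found in the deposited table, as 2 of its 45777 gene symbols, and both passed the filter on low values that left 11794 genes for testing. Because the contrast of Combination with ABL503 chose them, every comparison of these genes that uses a library of either group is a description without a p-value. The contrast of Pembrolizumab with Control compares neither group and was tested. Its limma fit took the spread from all 4 groups, ABL503 and the Combination included.

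The mice were of the C57BL/6 background and carried human PD-1, PD-L1 and 4-1BB in all 4 groups. Their tumours were grown from MC38, syngeneic mouse colon cancer cells that overexpressed human PD-L1. The groups were Control, Pembrolizumab (an antibody that blocks PD-1), ABL503 (an antibody with arms for PD-L1 and 4-1BB) and the Combination of both, with 5 libraries each, made from cells sorted on day 4 after treatment. What the Control mice received, the promoters that drive the human genes, and whether each library came from its own mouse are not given in the sources used here, so p-values measure only the spread between these libraries.

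CD83 is an immunoglobulin-superfamily protein best known from mature dendritic cells, and it also appears on activated B and T cells. In antigen-presenting cells and thymic epithelium it opposes MARCH-family ubiquitin ligases, which keeps MHC class II and CD86 at the surface. CD24, encoded in the mouse by Cd24a, is a small, heavily glycosylated protein held in the membrane by a lipid anchor. It is found on B-lineage cells, immature T cells, myeloid cells and epithelium, and binds P-selectin and the inhibitory receptor Siglec-G.

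In the GENCODE M21 annotation of GRCm38, Cd83 (ENSMUSG00000015396.4) lies on the plus strand at chr13:43784775-43803132, with 1 coding transcript of 5 exons. Cd24a (ENSMUSG00000047139.9) lies on the plus strand at chr10:43578284-43584265, with 2 coding transcripts of 2 exons each. Values are per gene, so they do not say which exons or untranslated parts gave the reads. Of the distinct 31-base words in Cd83 transcripts, 0 of 2571 also occurred in another annotated gene. For Cd24a the count was 127 of 2548 (4.98%), shared with the predicted genes Gm6212 and Gm15352. Gm6212 reached at most 0.0526 FPKM (fragments scaled by transcript length and library size) and Gm15352 at most 0.234 FPKM in any library. How the counting divided reads between such copies is not given, and Cd24a levels carry that uncertainty.

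The sort was checked against its markers. The 8 listed CD8 T-cell markers summed to between 4503 and 7615 FPKM per library, and Cd8a averaged 279 ± 46.7 FPKM in Control (SD, n = 5, as for all FPKM means below). The 3 markers of CD4 and regulatory T cells summed to at most 2.61 FPKM. Of 54 listed markers of B cells, dendritic cells, macrophages and neutrophils, 50 were detected, but 26 stayed under 1 FPKM in every library. Il12b of dendritic cells, and Cxcr2 and Camp of neutrophils, were listed at 0 in all 20 libraries. The summed level of the 54 ran from 355 to 520 FPKM in Control (median 473), 388 to 653 in Pembrolizumab (median 411), 449 to 720 in ABL503 (median 490) and 309 to 576 in the Combination (median 390), so the summed levels of all groups overlapped. The mean log2 level used for the correlations below did not overlap between ABL503 (1.033 to 1.203) and the Combination (0.753 to 0.920), the contrast that chose both genes. The table gives no read counts, so the depth of each library is unknown and no counting interval is given. Column sums ran from 575918 to 654333 FPKM.

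Cd83 was lower in both groups that received pembrolizumab than in the others. In Control, libraries 1 to 5 stood at 19.1, 37.4, 20.6, 26.8 and 11.99 FPKM. In Pembrolizumab they stood at 10.3, 9.14, 6.92, 10.2 and 12.5 FPKM. Control library 5 was the low one of its group and lay just below the highest Pembrolizumab library, the only crossing between these groups. In ABL503, libraries 1 to 5 stood at 24.5, 33.9, 55.0, 43.7 and 30.2 FPKM, and in the Combination at 8.40, 12.4, 8.41, 8.27 and 18.3 FPKM. Combination library 5 was the high one of its group, and still lay below every ABL503 library.

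Mean Cd83 was 37.4 ± 12.03 FPKM in ABL503, 23.2 ± 9.51 in Control, 11.1 ± 4.34 in the Combination and 9.83 ± 2.04 in Pembrolizumab. Each group overlapped its neighbour in this order. ABL503 was separated from both the Combination and Pembrolizumab. Among the 11794 genes, 82.1% had a lower mean than Cd83 in ABL503 and 59.4% in Pembrolizumab.

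Cd83 fell under pembrolizumab alone. Its mean in Control was 2.36 times that in Pembrolizumab. The difference of log2(FPKM + 1), a scale that understates changes of low values, was -1.09 (SE 0.26, 95% interval -1.64 to -0.54, limma adjusted p = 0.0192), where a gene passed at an adjusted p under 0.05. A limma fit of only Pembrolizumab and Control gave -1.09 (adjusted p = 0.0340). An exact two-sided permutation test over the 10 libraries gave p = 0.0159, where the smallest possible value is 0.00794. In this comparison 5.55% of all tested genes passed, 2.77% higher and 2.78% lower. The call was lost without Control library 2 (log2 difference -0.90, adjusted p = 0.0534), without Pembrolizumab library 3 (-0.98, adjusted p = 0.0520), and with all genes above 0 in the fit (-1.09, adjusted p = 0.0655).

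Cd24a followed another order, with its lowest level in the Combination. In Control, libraries 1 to 5 stood at 6.89, 15.9, 13.9, 13.0 and 3.27 FPKM, with libraries 1 and 5 apart from the other three. In Pembrolizumab they stood at 17.4, 16.9, 16.3, 9.57 and 13.8 FPKM. In ABL503 they stood at 21.02, 24.5, 17.0, 12.9 and 17.9 FPKM. The low libraries of both treated groups, number 4 in each, lay within the range of Control, as did Pembrolizumab library 5. In the Combination, libraries 1 to 5 stood at 8.38, 7.25, 5.81, 0.765 and 2.90 FPKM, all below every library of Pembrolizumab and of ABL503.

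Mean Cd24a was 18.7 ± 4.37 FPKM in ABL503, 14.8 ± 3.24 in Pembrolizumab, 10.6 ± 5.31 in Control and 5.02 ± 3.14 in the Combination. Each group overlapped its neighbour in this order. The spread was widest in the Combination, where the SD was 62.6% of the mean, and narrowest in Pembrolizumab, at 21.9%. Against 71.6% of tested genes with a lower mean in ABL503, 44.3% had one in the Combination.

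For Cd24a the contrast of Pembrolizumab with Control did not pass. The log2 difference was 0.58 (SE 0.39, 95% interval -0.24 to 1.40, limma adjusted p = 0.440), and the exact two-sided permutation test gave p = 0.190. The ratio of means was 1.39, and the interval holds both a small decrease and a larger rise. Without Control library 5, the lowest, the difference was 0.26 (adjusted p = 0.747).

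**Figure D1:**
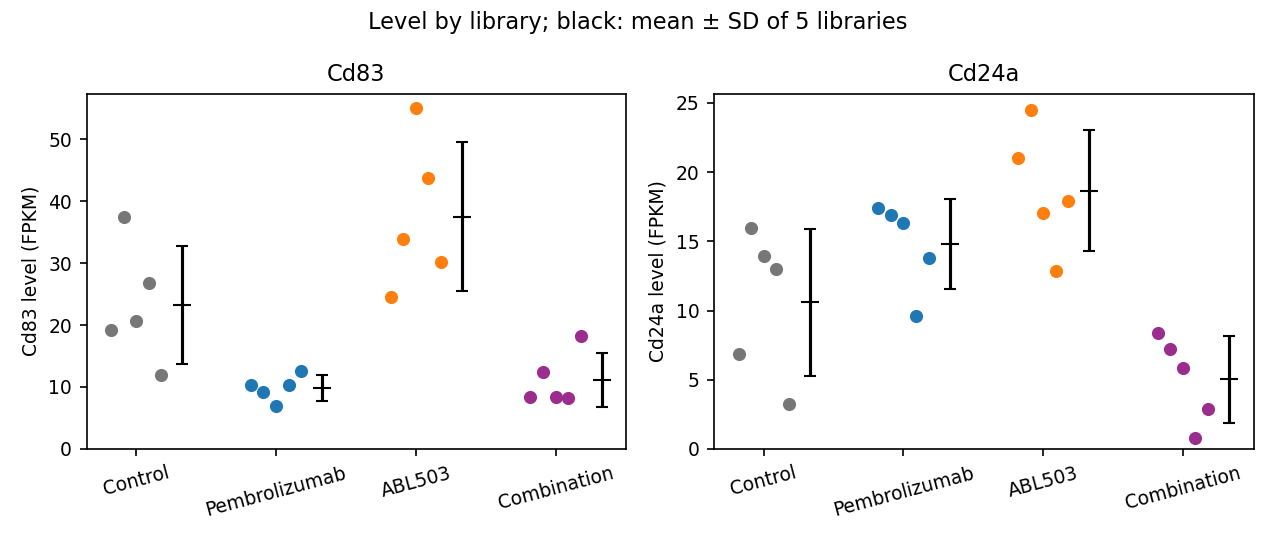
Level of Cd83 (left) and Cd24a (right) in FPKM, with 1 point per library and the mean ± SD of 5 libraries in black for each of the 4 groups. Cd83 is low in Pembrolizumab and the Combination (means 9.83 and 11.1 FPKM), while Cd24a is low in the Combination (5.02 FPKM) and not in Pembrolizumab (14.8 FPKM).

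The other sides of the design are given as sizes only. Their 95% intervals show the spread between libraries and are no test against 0, since each side uses libraries that chose the genes. From ABL503 to the Combination, Cd83 differed by -1.67 on the log2 scale (SE 0.26, 95% interval -2.22 to -1.12), with the ABL503 mean 3.36 times that of the Combination. Cd24a differed by -1.90 (SE 0.39, 95% interval -2.72 to -1.09), with the ABL503 mean 3.72 times as high. In neither gene did the groups overlap, and how many of all tested genes were so separated was not counted. This is the contrast that chose them, and over all tested genes 4.53% passed in it at an adjusted p under 0.05, which is another measure. Leaving out any 1 of the 10 libraries kept the Cd83 difference between -1.85 and -1.52 and the Cd24a difference between -2.12 and -1.52. These ranges describe a chosen contrast and are no support for it. The Cd24a difference was smallest without Combination library 4, where Cd24a stood at 0.765 FPKM.

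Means of both genes were higher in ABL503 than in Control, and the groups overlapped. The log2 difference of ABL503 from Control was 0.71 for Cd83 (SE 0.26, 95% interval 0.16 to 1.25) and 0.89 for Cd24a (SE 0.39, 95% interval 0.08 to 1.71). In this comparison 0.619% of tested genes passed. From Pembrolizumab to the Combination, Cd83 stayed within the spread of both groups, at a log2 difference of 0.12 (SE 0.26, 95% interval -0.43 to 0.67). For Cd24a the same step gave -1.59 (SE 0.39, 95% interval -2.40 to -0.77), and the Pembrolizumab mean was 2.95 times that of the Combination. In this comparison 0.161% of tested genes passed.

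The difference of differences, Combination minus ABL503 less Pembrolizumab minus Control, was -0.58 for Cd83 (SE 0.37, 95% interval -1.36 to 0.19) and -2.48 for Cd24a (SE 0.55, 95% interval -3.64 to -1.33). For Cd83 the groups with pembrolizumab thus had the lower mean both with and without ABL503. For Cd24a the group with pembrolizumab had the higher mean without ABL503, within the spread, and the lower mean with it. These intervals also hold the contrast that chose the genes and are no test against 0. The sides of the design share groups and so are not independent of each other.

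**Figure D2:**
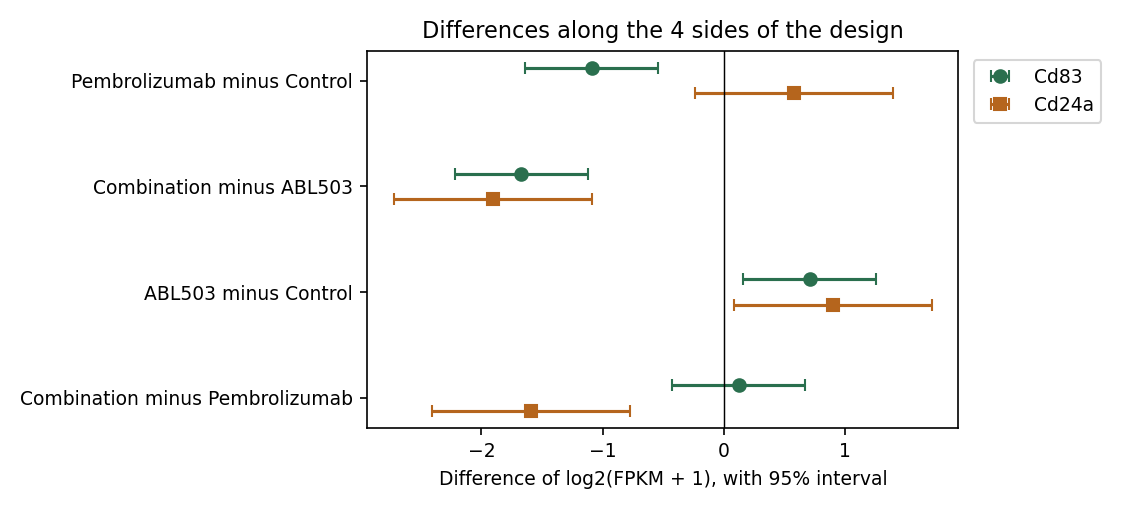
Difference of log2(FPKM + 1) for Cd83 (circles) and Cd24a (squares) along the 4 sides of the design, with 95% intervals from the fit across all genes. Both genes lie left of 0 for Combination minus ABL503 (-1.67 and -1.90), and they part for Pembrolizumab minus Control (-1.09 and 0.58) and for Combination minus Pembrolizumab (0.12 and -1.59). Only Pembrolizumab minus Control was tested, and the other intervals are no test against 0.

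The genes of MHC class II presentation and the known partners of CD83 were followed as a list of 15, of which 10 were tested. In Pembrolizumab against Control, 0 were higher and 3 lower, with a median log2 difference of -0.78 beside -0.03 over all tested genes. Of all tested genes, 2.77% were higher and 2.78% lower. Cd74, the invariant chain that guides MHC class II to peptide loading, ran from 67.8 to 197 FPKM in Control (median 97.9) and from 20.9 to 69.3 in Pembrolizumab (median 42.0). It fell by 1.42 on the log2 scale (SE 0.32, limma adjusted p = 0.0139), with 1 Pembrolizumab library above the lowest Control library. H2-Oa, a subunit of the H2-O regulator of peptide loading, fell from 9.92 ± 3.44 to 4.69 ± 1.19 FPKM (log2 difference -0.92, SE 0.20, limma adjusted p = 0.0120). H2-DMb2, a chain of the peptide-loading factor H2-M, fell from 1.97 ± 0.813 to 0.704 ± 0.371 FPKM (log2 difference -0.79, SE 0.21, limma adjusted p = 0.0339), a call lost without any 1 of 6 libraries. This call was also lost with a pseudocount of 0.1, no filter, only the groups compared and other-cell markers as covariate. The Cd74 call was lost with no filter.

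The chains of classical MHC class II did not pass in this comparison. H2-Aa differed by -0.77 (limma adjusted p = 0.490), H2-Ab1 by -1.16 (limma adjusted p = 0.172) and H2-Eb1 by -1.08 (limma adjusted p = 0.260). Control library 3 carried much of their level, with 69.6 FPKM of H2-Aa against 18.2 in the next library, while its Cd83 stood mid-range at 20.6 FPKM. H2-DMa differed by -0.25 and H2-DMb1 by 0.01 on the log2 scale. Neither costimulatory ligand passed: Cd86, which CD83 is known to stabilise as a protein, averaged 32.3 ± 10.1 FPKM in Control and 29.8 ± 7.78 in Pembrolizumab, and Cd80 averaged 2.20 ± 1.66 and 3.78 ± 1.12.

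From ABL503 to the Combination, 0 of the 10 were higher and 2 lower, with a median log2 difference of -0.64 beside -0.03 over all tested genes, of which 2.29% were higher and 2.24% lower. Cd74 ran from 79.5 to 170 FPKM in ABL503 (median 117) and from 13.9 to 41.8 in the Combination (median 34.3), with no overlap. It fell by 2.02 on the log2 scale (SE 0.32, limma adjusted p = 0.00177). H2-Aa fell from 24.8 ± 15.1 to 3.22 ± 2.40 FPKM (log2 difference -2.52, SE 0.57, limma adjusted p = 0.0146), a call lost with no filter and with other-cell markers as covariate. H2-Ab1 differed by -1.66 (limma adjusted p = 0.0523) and H2-Eb1 by -1.52 (limma adjusted p = 0.106). Cd86 averaged 30.5 ± 6.50 FPKM in ABL503 and 35.5 ± 2.99 in the Combination, in the other direction from Cd83 and within the spread. None of the 10 passed in limma for ABL503 against Control (median -0.05) or for Combination against Pembrolizumab (median -0.26). At an unadjusted p under 0.05 there were 1 and 2 of them, beside 1292 and 1552 of all 11794 tested genes. The medians of all tested genes were -0.01 and 0.0028.

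The 5 untested members were low. Ciita, the master activator of MHC class II transcription, reached at most 0.149 FPKM in any library. March1, the ubiquitin ligase that CD83 opposes, reached at most 0.425 FPKM, and its relative March8 at most 0.226 FPKM. H2-Ob, the other H2-O chain, averaged 1.07 ± 1.07 FPKM in Control and 0.211 ± 0.192 in the Combination. Cd40, a receptor of antigen-presenting cells, had group means from 0.176 to 0.649 FPKM.

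**Figure D3:**
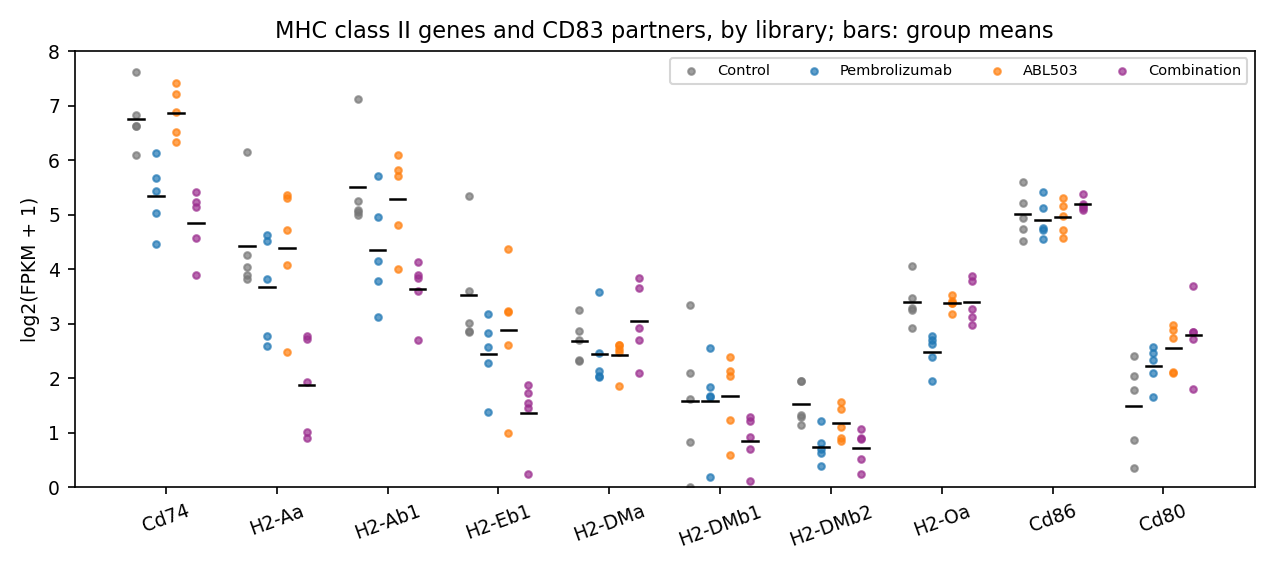
Levels of MHC class II genes and CD83 partners as log2(FPKM + 1), with 1 point per library, coloured by group, and bars at the group means. Cd74 is lower in Pembrolizumab and the Combination (42.9 and 29.9 FPKM) than in Control and ABL503 (115 and 121 FPKM), and Cd86 lies at about the same level in all groups.

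The list of CD24 partners and signalling genes held 11, of which 7 were tested, and 0 passed in limma in any of the 4 comparisons. At an unadjusted p under 0.05 there were 5 in Pembrolizumab against Control and 2 in each of the other comparisons. Of all 11794 tested genes, 2383 had such a p in Pembrolizumab against Control and 1292 in ABL503 against Control. The counts were 1552 in Combination against Pembrolizumab and 2411 in Combination against ABL503. Siglecg, which encodes the Siglec-G receptor for CD24, reached at most 0.931 FPKM in any library, and Selp, which encodes P-selectin, at most 0.507 FPKM. Selplg, which encodes the main P-selectin ligand of leukocytes, averaged 311 ± 45.0 FPKM in the Combination, 293 ± 27.3 in Control, 248 ± 34.8 in Pembrolizumab and 235 ± 27.3 in ABL503, and came nearest to passing from ABL503 to the Combination (log2 difference 0.40, limma adjusted p = 0.0539). Hmgb1, a nuclear protein that binds CD24 once released from damaged cells, had group means from 276 to 285 FPKM, and its relative Hmgb2 from 323 to 384 FPKM.

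Among the signalling members, Ptpn6 and Ptpn11 encode phosphatases that inhibitory receptors recruit. Group means ran from 21.5 to 30.7 FPKM for Ptpn6 and from 5.41 to 6.98 FPKM for Ptpn11. Of the Src-family kinases, Lck averaged 356 ± 47.3 FPKM in Pembrolizumab, 373 ± 59.6 in ABL503, 424 ± 16.6 in Control and 463 ± 42.1 in the Combination. From Pembrolizumab to the Combination it differed by 0.39 (limma adjusted p = 0.122). Group means ran from 1.13 to 2.14 FPKM for Lyn and from 0.203 to 1.06 FPKM for Fgr. The adhesion molecule gene L1cam had group means from 0.554 to 0.711 FPKM.

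CD83 and CD24 also belong to the surface proteins that change when T cells are activated, so 20 other such genes were followed, all tested. In Pembrolizumab against Control 4 were higher and 1 lower, and the median log2 difference was 0.15, beside 2.77% higher, 2.78% lower and a median of -0.03 over all tested genes. Tnfrsf9, the gene of 4-1BB, rose by 1.15 (SE 0.12, limma adjusted p = 1.11e-05), Havcr2, the gene of TIM-3, by 1.00 (SE 0.15, limma adjusted p = 0.000648), and the interleukin-2 receptor chain gene Il2ra by 1.05 (SE 0.20, limma adjusted p = 0.00568). The mice also carried human 4-1BB and PD-1, while the reads were set against the mouse build. How far the mouse rows Tnfrsf9 and Pdcd1 miss or pick up these human genes is not given. The inhibitory receptor gene Lag3 rose by 0.99 (limma adjusted p = 0.0173), a call lost without Pembrolizumab library 3. Slamf6, a receptor gene of progenitor-like T cells, fell by 0.60 (limma adjusted p = 0.0217). It is the 5th by p, was named after its values were seen, and was lost without any 1 of 3 libraries. Cd83 thus moved opposite to 4 of these 5 genes.

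In ABL503 against Control 3 of the 20 were higher and 0 lower, where 0.585% of all tested genes were higher and 0.0339% lower. Cd70, the ligand gene of the CD27 receptor, rose from 2.12 ± 1.48 to 20.03 ± 5.32 FPKM (log2 difference 2.84, SE 0.46, limma adjusted p = 0.00372). Tnfrsf9 rose by 0.60 (limma adjusted p = 0.0140) and Havcr2 by 0.67 (limma adjusted p = 0.0390), calls lost without ABL503 library 5 and without 9 of the 10 libraries in turn, respectively. The Havcr2 call was also lost with the replicate block. From Pembrolizumab to the Combination 0 were higher and 1 lower, where 0.0678% of all tested genes were higher and 0.0933% lower. That gene, Tnfsf14, which encodes the cytokine LIGHT, fell from 9.32 ± 2.39 to 3.72 ± 1.53 FPKM (log2 difference -1.16, SE 0.22, limma adjusted p = 0.0310), a call lost without any 1 of 6 libraries and in the fit with a replicate block. This call was also lost with no filter, with only the groups compared and with other-cell markers as covariate.

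From ABL503 to the Combination 2 of the 20 were higher and 3 lower (median -0.03), beside 2.29% and 2.24% of all tested genes. Tnfsf8, the gene of the CD30 ligand, fell (log2 difference -1.37, SE 0.21, limma adjusted p = 0.00140), as did Tnfsf14 (-1.34, SE 0.22, limma adjusted p = 0.00177) and Slamf6 (-0.89, SE 0.15, limma adjusted p = 0.00226). Tnfrsf9 rose by 0.66 (SE 0.12, limma adjusted p = 0.00304). Pdcd1, the gene of PD-1, rose by 0.92 (SE 0.24, limma adjusted p = 0.0285). It is the 5th by p and was named after its values were seen. Its call was lost without any 1 of 7 libraries, with no filter and with other-cell markers as covariate. The limit given above for the mouse row Tnfrsf9 holds for Pdcd1 as well.

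Cd83 is a known target of NF-kB, so 26 genes of NF-kB and T-cell-receptor-induced transcription were followed, 25 of them tested. In Pembrolizumab against Control 1 was higher and 3 were lower (median -0.19), beside 2.77% and 2.78% of all tested genes. Irf8, a transcription factor gene induced by T-cell receptor signals, rose by 1.53 (SE 0.17, limma adjusted p = 4.31e-05). Birc3, an NF-kB target that encodes a ubiquitin ligase, fell by 0.61 (SE 0.11, limma adjusted p = 0.00293). Nfkbie, an inhibitor of NF-kB, fell (log2 difference -0.66, limma adjusted p = 0.0331), as did Traf1, a signalling adaptor (-0.36, limma adjusted p = 0.0472), calls lost without any 1 of 7 and of 8 libraries, respectively. Among 9 other settings of the fit, the Nfkbie call was lost in 3 and the Traf1 call in 6.

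From ABL503 to the Combination 0 of these 25 were higher and 2 lower (median -0.16), beside 2.29% and 2.24% of all tested genes. Rel, the gene of the NF-kB subunit c-Rel, fell from 24.6 ± 3.49 to 16.4 ± 2.04 FPKM (log2 difference -0.55, SE 0.11, limma adjusted p = 0.00566). Myc, the growth regulator, fell from 31.2 ± 8.92 to 16.0 ± 1.91 FPKM (log2 difference -0.89, SE 0.24, limma adjusted p = 0.0333). With other-cell markers as covariate, whose level did not overlap between these groups, neither passed. Myc was also lost with no filter and without any 1 of 6 libraries. Irf8 rose in ABL503 against Control by 0.90 (SE 0.17, limma adjusted p = 0.0145), the only one of the 25 that passed there. None passed in limma from Pembrolizumab to the Combination, where 6 had an unadjusted p under 0.05, beside 1552 of all 11794 tested genes.

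Both genes are also made by cells other than CD8+ T cells, so each was set against marker levels, where a list's level is the mean log2(FPKM + 1) of its detected members. In a sorted bulk library, fewer cells of a type and less RNA per cell cannot be told apart. The combined level of the B-cell, dendritic, macrophage and neutrophil markers averaged 1.10 in ABL503, 1.07 in Control, 0.99 in Pembrolizumab and 0.82 in the Combination. Over the 20 libraries, which share treatment groups, its Pearson r was 0.30 with Cd83 (Spearman rho 0.33) and 0.44 with Cd24a (rho 0.56). After group means were subtracted, r was -0.35 for Cd83 and 0.03 for Cd24a. The positive r of Cd83 thus did not remain once group means were subtracted. The value after subtraction is pooled over all groups, and r within each single group is not given.

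Taken list by list, Cd83 had r of 0.47 with B-cell markers, 0.45 with dendritic-cell markers, -0.03 with macrophage markers and 0.37 with neutrophil markers (rho 0.10). After group means were subtracted these were -0.10, -0.16, -0.35 and 0.04. Cd24a had r of 0.54 with B-cell markers, 0.54 with dendritic-cell markers, 0.15 with macrophage markers and 0.05 with neutrophil markers. After subtraction the first pair kept positive values, 0.44 and 0.45, and the others were -0.21 and -0.28. For Cd24a the positive r with B-cell and dendritic-cell markers thus remained after group means were subtracted, and for Cd83 it did not.

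Single markers gave no uniform picture. Of the 17 other-cell markers that were tested as genes, 11 had a positive r with Cd83 (from -0.35 to 0.57, median 0.04) and 10 with Cd24a (from -0.18 to 0.57, median 0.12). Over all other tested genes the 5th and 95th percentiles of r were -0.53 and 0.54 for Cd83 and -0.44 and 0.44 for Cd24a. Among B-cell genes, the immunoglobulin genes Ighm, Igkc and Iglc2 had r of 0.57, 0.04 and 0.49 with Cd83 and of 0.51, 0.57 and 0.47 with Cd24a. Cd79b, a chain of the B-cell receptor, had 0.10 with Cd83 and -0.06 with Cd24a, and the adaptor gene Blnk 0.19 and -0.01. After subtraction Cd79b had -0.22 and -0.23, and Blnk -0.19 and -0.08. Cd74 had r of 0.70 with Cd83 and 0.47 with Cd24a over the 20 libraries, and 0.02 and 0.19 after group means were subtracted. Epcam, an epithelial adhesion gene, had r of 0.60 with Cd83 and 0.65 with Cd24a, and 0.47 and 0.24 after subtraction. The other tested epithelial genes differed from it: Cdh1, which encodes E-cadherin, had 0.14 and -0.44 (0.02 and -0.63 after subtraction), and Krt18, a keratin gene, 0.09 and -0.04 (0.17 and -0.21). These single markers were named after their values were seen.

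**Figure D4:**
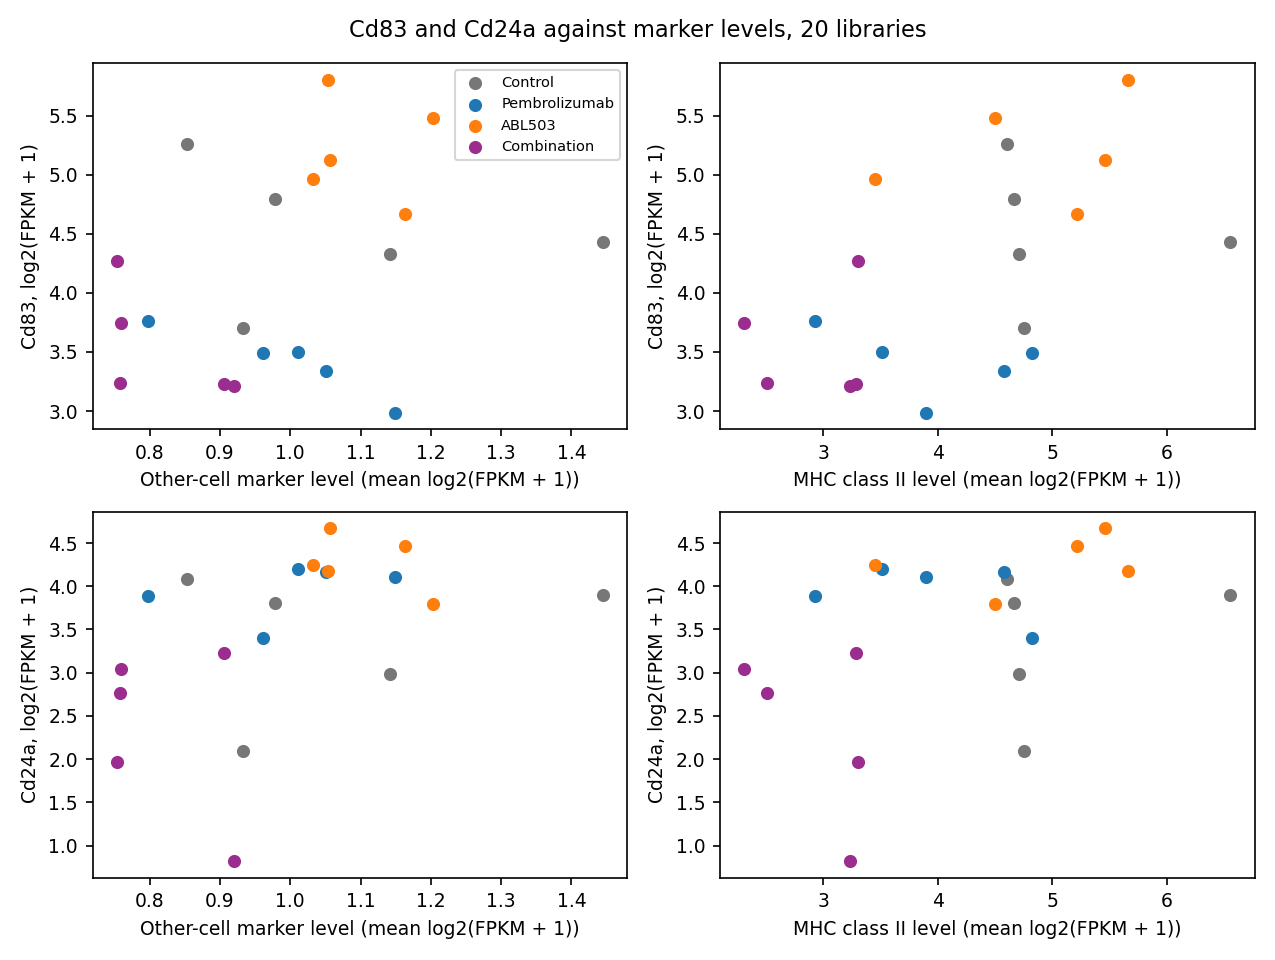
Cd83 (top) and Cd24a (bottom), as log2(FPKM + 1), against the level of other-cell markers and of 4 MHC class II genes, both as mean log2(FPKM + 1), with 1 point per library coloured by group. Every Combination library lies below every ABL503 library in both marker levels, and with group means subtracted the r of Cd83 is -0.35 for the first level and -0.01 for the second.

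The level of the 4 MHC class II genes Cd74, H2-Aa, H2-Ab1 and H2-Eb1 was, like Cd83, lower in the groups with pembrolizumab, with means of 5.06 in Control, 4.86 in ABL503, 3.95 in Pembrolizumab and 2.93 in the Combination. By these means, the order within each pair of groups was not that of Cd83, whose mean was higher in ABL503 than in Control and higher in the Combination than in Pembrolizumab. Control library 3 raised the Control mean, at 6.56 with the next library at 4.75. The median summed FPKM of the 4 genes was 155 in Control and 233 in ABL503, which is the order of Cd83. From Pembrolizumab to the Combination, Cd83 stayed within the spread (log2 difference 0.12, SE 0.26). The r of this level with Cd83 was 0.54 over all libraries. ABL503 library 5 had the lowest MHC class II level of its group, 3.45, with Cd83 at 30.2 FPKM, and the Pembrolizumab libraries reached 4.83 with Cd83 at most 12.5 FPKM. With the MHC class II level as a covariate, the Cd83 difference of Pembrolizumab from Control was -1.09 (limma adjusted p = 0.0661), as large as without it but no longer past the threshold. With the other-cell marker level added instead it was -1.17 (limma adjusted p = 0.0134).

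Beside the lower levels of both genes in the Combination than in ABL503 stood a fall of Ighm, from 44.0 ± 10.5 to 20.1 ± 4.10 FPKM (log2 difference -1.08, SE 0.22, limma adjusted p = 0.00814, lost with the other-cell covariate), and of Epcam, from 5.50 ± 1.33 to 1.89 ± 0.556 FPKM (-1.17, SE 0.26, limma adjusted p = 0.0128). These were the only ones that passed among the 5 tested B-cell, 5 dendritic-cell, 7 macrophage and 3 epithelial markers. Over all tested genes, 2.29% were higher and 2.24% lower in this contrast. The macrophage genes Cd14 and Lyz2 averaged 7.34 ± 8.26 and 17.2 ± 14.4 FPKM in ABL503 and 0.281 ± 0.333 and 3.402 ± 4.55 in the Combination. Cd14 passed as lower with a pseudocount of 0.1, and C1qb, another macrophage gene, passed as higher with the other-cell covariate. These 3 were named after their values were seen. Ighm and C1qb are themselves part of the other-cell covariate, so the fit with it cannot judge them. The level of that covariate did not overlap between ABL503 and the Combination. For any gene in this contrast, that fit thus could not separate marker level from treatment. The part of any marker in the Cd83 and Cd24a differences between these groups was not tested. Zbtb46, a transcription factor gene of dendritic cells, moved in another direction: it averaged 2.14 ± 0.905 FPKM in Pembrolizumab and 6.33 ± 1.90 in the Combination (log2 difference 1.23, SE 0.22, limma adjusted p = 0.0254, lost without any 1 of 5 libraries), where Cd24a was lower. Xcr1, a chemokine receptor gene of dendritic cells, rose from 2.52 ± 0.299 to 4.36 ± 0.549 FPKM in Pembrolizumab against Control (log2 difference 0.61, SE 0.14, limma adjusted p = 0.0173, lost without Pembrolizumab library 5), where Cd83 was lower. Another tested dendritic-cell gene, Siglech, was named after its values were seen. Like Cd83 it had lower means with pembrolizumab, 2.45 ± 1.88 FPKM (Pembrolizumab) and 2.29 ± 1.72 (Combination). Against these stood 7.85 ± 5.25 FPKM (Control) and 6.35 ± 5.80 (ABL503), and Siglech did not pass. Its r with Cd83 was 0.41, and -0.12 after group means were subtracted. The tested dendritic-cell genes thus shared no direction. Of the immature T-cell markers, Rag1 and Rag2 were listed at 0 in all libraries, and the list's r with Cd24a was 0.08.

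The genes most like Cd83 over the 20 libraries were sought among 6610 whose log2(FPKM + 1) averaged 2 or more. The highest Pearson r belonged to Serpini1 (0.89), Eed (0.87), Tbp (0.86), Phf6 (0.85), Psmc6 (0.83), Il2 (0.83), Bhlhe40 (0.82) and Coq10b (0.82). Il2, the gene of interleukin-2, averaged 8.77 FPKM in ABL503, 6.51 in Control, 2.37 in Pembrolizumab and 0.797 in the Combination, so the groups with pembrolizumab were again the lower ones. Bhlhe40, a transcription factor gene induced by activation, averaged 395 FPKM in ABL503, 365 in Control, 289 in the Combination and 277 in Pembrolizumab. The lowest r belonged to Plac8 (-0.83), Prdx5 (-0.82), Zbp1 (-0.82) and Rex1bd (-0.82). After group means were subtracted the highest were Gadd45b (0.85), Rtca (0.83), Phf6 (0.81), Rrs1 (0.76) and Stat3 (0.73), of which Phf6 was also among the first 8.

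For Cd24a the highest r belonged to Sac3d1 (0.86), Creg1 (0.80), Calr (0.77), Hmgn1 (0.77), Ptma (0.76), Acer3 (0.76), Sh3bp5 (0.72) and Emc6 (0.72). Hmgn1, a nucleosome-binding protein gene, averaged 107 FPKM in Pembrolizumab, 104 in Control, 102 in ABL503 and 61.9 in the Combination. The lowest r belonged to Cd96 (-0.80), Micu2 (-0.77), Gstp3 (-0.77) and Isg20 (-0.74). Cd96, a receptor gene of T and NK cells, averaged 85.3 FPKM in the Combination, 65.6 in Control, 60.1 in ABL503 and 56.9 in Pembrolizumab. After group means were subtracted the highest were Zbtb32 (0.76), Sac3d1 (0.73), Stx5a (0.72), Prdx4 (0.72) and Slamf6 (0.71). No gene stood on the lists of both Cd83 and Cd24a, and the r between Cd83 and Cd24a themselves was 0.43 (rho 0.43), or 0.25 after group means were subtracted. These are the extremes of many ranked values and are given as a description.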

How the data were processed

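RNA of sorted CD8+ T cells was read from 20 libraries in 4 groups of 5. Libraries were made with the SMART-Seq v4 kit, per the labels' protocols. The submitters' processing notes name HISAT2, StringTie and the build GRCm38 (mm10), and versions and the annotation release are not given in the sources used here. The authors' deposited values were taken as FPKM, judged from the values, since the file header names no unit. Read counts are not given, so count models were not run.

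A gene was tested if 5 or more libraries had 1 FPKM or more, which held for 11794 of 45777. The log2(FPKM + 1) values of all libraries entered a single limma fit (limma 3.58.1, R 4.3.3) of group means, with 16 residual degrees of freedom and an intensity trend, and p-values were two-sided and Benjamini-Hochberg adjusted over all genes tested. The steps were checked on simulated data. Summaries and plots used matplotlib 3.10.9 and pandas 2.3.3 under Python 3.11.15.

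Cd83, Cd24a and the 14 gene lists were chosen with earlier results of these data known, and the lists are no independent evidence of a direction. March1 and March8 are listed under these older symbols of Marchf1 and Marchf8. Named genes were Cd83, Cd24a, all members of the CD83-partner and CD24-partner lists, up to 4 members past the threshold per comparison by p of the other lists, and for each of Cd83 and Cd24a the 8 highest and 4 lowest Pearson r and the 5 highest after subtracting group means. That ranking left out predicted models, pseudogenes, small RNAs and receptor segments. Alternatives were quantile normalization, equal sums, a pseudocount of 0.1, no filter, array weights, a replicate block, a fit of only the groups compared, a covariate for other-cell markers and leaving out each library. Leaving out Control library 1 with ABL503 library 3, and the MHC class II covariate, were chosen after seeing the data.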

Additional observations from a re-analysis of the deposited data

Results flagged for a closer look

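In a group of 5 libraries, the highest or lowest value stood apart where its gap to the next, divided by the group's range, was above 0.71. Of 84 groups of values looked at, 9 did so, and chance gives about 1 such gap in 20 groups. No group of Cd83 or Cd24a was among the 9. In Control library 3, H2-Aa stood at 69.6 FPKM (next 18.2), H2-Ab1 at 138 FPKM (next 37.3) and H2-Eb1 at 39.4 FPKM (next 11.0), and the mean log2(FPKM + 1) of the 4 MHC class II genes was 6.56 (next 4.75). In Pembrolizumab library 3, H2-DMa stood at 10.9 FPKM (next 4.51). In ABL503 library 4, H2-DMa was lowest at 2.64 FPKM (next 4.58) and Ptpn11 highest at 7.02 FPKM (next 5.38). Hmgb1 stood at 291 FPKM in Control library 2 (next 275) and at 338 FPKM in Pembrolizumab library 2 (next 281).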

How the results depend on the processing

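Cd83 was lower in Pembrolizumab than in Control under all 10 alternatives (log2 differences) and passed under 8 of them. It did not pass with no filter (-1.09, adjusted p = 0.0655) or with the MHC class II level as a covariate (-1.09, adjusted p = 0.0661). The no-filter fit tests more genes; for the covariate the cause was not tested. Leaving out each library gave -1.29 to -0.90, with adjusted p from 0.00544 to 0.0534. For Cd24a none of the 10 passed, and leaving out each library gave 0.26 to 0.76. Same-numbered libraries did not deviate together over all tested genes (r from -0.15 to 0.11 over 30 pairs, 8 of them best with their own number). What the numbers mean is not given, and a pairing that touches only some genes was not tested. With the replicate number as a block, the adjusted p was 0.0331 for Cd83 and 0.349 for Cd24a, and the counts of genes passed stayed within 1.5 times. The differences of Combination from ABL503 moved by less than the spread between libraries under all alternatives run. That contrast chose both genes, so this steadiness is no support for it. The r with other-cell markers went from 0.30 to -0.35 for Cd83 and from 0.44 to 0.034 for Cd24a with group means subtracted. For Cd83 it was 0.0398 with summed FPKM. The number of genes passed was less stable, and the cause was not tested. For Pembrolizumab against Control it was 655, 321 with no filter and 395 with only the groups compared, and 383 to 707 leaving out each library (421 without Control library 1, 383 without Pembrolizumab library 1). For ABL503 against Control it was 73, 42 with no filter, 37 without Control library 1 and ABL503 library 3, and 40 to 72 leaving out each library. For Combination against ABL503 it was 534, 935 with array weights, 271 with no filter, 183 with the other-cell covariate, and 271 to 752 leaving out each library. For Combination against Pembrolizumab it was 19, 85 with array weights, 3 with no filter, 3 with only the groups compared, 10 with the other-cell covariate, 32 without Control library 1 and ABL503 library 3, and 6 to 49 leaving out each library. Of the 30 calls among list members in these comparisons, 13 were lost with no filter, 6 with only the groups compared, 8 with the other-cell covariate, 2 with the replicate block (Havcr2 in ABL503 against Control and Tnfsf14 in Combination against Pembrolizumab) and 12 without at least 1 of the libraries. Lost with no filter in Pembrolizumab against Control were Cd74, H2-DMb2, Lag3, Slamf6, Nfkbie and Traf1. Elsewhere these were Havcr2 and Irf8 (ABL503 against Control), Tnfsf14 and Zbtb46 (Combination against Pembrolizumab), and H2-Aa, Pdcd1 and Myc (Combination against ABL503). Of these calls, those of H2-DMb2, Nfkbie, Traf1, Havcr2, Tnfsf14 and Zbtb46 were also lost with only the groups compared. Read depth is unknown, so the spread between 5 libraries sets the precision.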
